A study of Mus musculus with 2 samples.

Results

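Sox and Fox genes encode families of transcription factors. They were set here against binding of CTCF, a zinc finger protein of chromatin, in newborn mouse midbrain. The gene set was chosen by name and chromosome alone: every protein-coding gene of GENCODE vM21 on chromosomes 1 to 19 called Sox plus a number or Fox plus a letter and a number, apart from 6 genes that the rule leaves out. It holds 53 genes, 14 Sox and 39 Fox, of 20807 protein-coding genes on those chromosomes. A further 4 genes of these families lie on X and are outside the rule. The single group was midbrain tissue from B6NCrl mice on postnatal day 0, immunoprecipitated with an antibody against CTCF in 2 replicates, with no second genotype, treatment or age. Since 1 biosample and 1 donor are recorded for both, replicate spread here may be purely technical. Peak lists carry no expression values, so the tissue label was not checked against marker genes.

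Sox proteins bind DNA through an HMG box, bend it, and act with partner factors in stem cells, neurons, glia, gonads and vessels. Fox proteins bind through a winged-helix forkhead domain and work in patterning of the embryo, in metabolism and in the cell cycle, and members of both families guide the making of midbrain neurons and glia. CTCF binds a long, directional motif, and it can stop cohesin as that complex extrudes DNA loops. Loop ends most often carry motifs that point towards each other, an arrangement called convergent. A CTCF peak near a gene does not say whether the gene is transcribed.

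Binding was read from the deposited optimal list of peaks, 68603 in all, each with a summit and a signal value of unstated scale. Of its peaks on the main chromosomes, 97.8% also had a summit within 100 bp in the list of each replicate called alone. Each replicate list held 300000 peaks and the optimal list was derived from the same replicates, so this match is not an independent check. Of the peaks found in both, 94.8% had a ratio between replicates within 1 log2 unit of the overall median. Signals ran from 6.81 to 691, with a median of 76.5. With read depth unknown, no detection limit can be given, and absence from a list does not show absence of CTCF.

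Of the 53 genes, 8 had a peak within 1 kb of an annotated transcript start that also held the CTCF motif with its centre within 50 bp of the summit, at a per-position p of 1e-05. These sequences are shown because they are the motif-bearing sites nearest to Sox and Fox starts. Each line is mm10 reference sequence read 5′ to 3′ on the strand of the motif, and capitals mark the 20 bp motif. The lower case bases are 20 on each side, left out for Foxp2, whose site lies in an untranslated region.
Sox13: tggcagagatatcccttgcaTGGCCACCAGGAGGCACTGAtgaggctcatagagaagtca
Foxo6: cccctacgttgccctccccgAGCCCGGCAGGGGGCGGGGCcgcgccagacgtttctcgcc
Sox15: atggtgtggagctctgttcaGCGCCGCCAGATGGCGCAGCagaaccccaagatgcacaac
Foxp2: TTTCCACCAGAGGGCCACAT
Foxd2: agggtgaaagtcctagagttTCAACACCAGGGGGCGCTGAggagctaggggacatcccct
Foxs1: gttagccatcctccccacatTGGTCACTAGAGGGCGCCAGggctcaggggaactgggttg
Sox8: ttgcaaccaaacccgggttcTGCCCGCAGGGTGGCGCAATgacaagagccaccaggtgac
Foxa3: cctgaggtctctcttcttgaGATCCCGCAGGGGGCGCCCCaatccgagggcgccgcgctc

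The Sox13 motif lies at chr1:133385676-133385695 on the plus strand, in no exon. The Foxo6 motif lies at chr4:120287944-120287963 on the minus strand and the Foxs1 motif at chr2:152933825-152933844 on the minus strand, both outside exons. The Sox15 motif, at chr11:69655555-69655574 on the plus strand, is in coding sequence of Sox15 itself. The Foxp2 motif, at chr6:15197468-15197487 on the plus strand, is in a Foxp2 untranslated region. The Foxd2 motif, at chr4:114908988-114909007 on the minus strand, is outside exons and within 1 kb of starts of both Foxd2 and Foxd2os. The Sox8 motif, at chr17:25571041-25571060 on the plus strand, overlaps an exon of 2810468N07Rik. The Foxa3 motif, at chr7:19023646-19023665 on the minus strand, is outside exons and within 1 kb of starts of both Foxa3 and Sympk. Of these 8 motifs, 6 pointed the same way as the gene and 2, at Sox13 and Sox8, the opposite way. Over all protein-coding genes, 54.4% of 4201 motif-bearing gene and peak pairs within 1 kb pointed the same way.

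A CTCF summit lay within 1 kb of a start in 22 of the 53 genes (41.5%), against 44.2% of all protein-coding genes, a share near the background in the optimal list. The share within 1 kb with a motif was 15.1% of the Sox and Fox genes, against 17.5% of all genes. Within 5 kb the count was 39 of 53 (73.6%), against 62.4% of all genes, and within 50 kb it was 53 of 53, against 88.7%. All 39 Hox genes, all 35 genes of the compared homeodomain families (Pou, Pax, Lhx, Isl and Lmx1) and all 28 Klf and Sp genes also had a summit within 50 kb. No test was made between these lists, and none of these counts was shown to be particular to Sox and Fox genes.

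The distance from a start to the nearest summit had a median of 1653 bp in Sox and Fox genes, with quartiles of 459 and 5007 bp, against a median of 1750 bp and quartiles of 183 and 12611.5 bp over all genes. The medians were close in this list, but not in every list: they were 2522 bp for Sox and Fox genes and 1656 bp for all genes without replicate 1, and 2503 and 2007 bp in the conservative list. By the quartiles, Sox and Fox genes were less spread than all genes. The farthest Sox or Fox gene, Sox17, was 19392 bp from a summit, whereas 80.7% of all genes had one within 20 kb. The median was 565 bp for Klf and Sp genes, 2566 bp for the homeodomain families and 4159 bp for Hox genes.

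**Figure D1:**
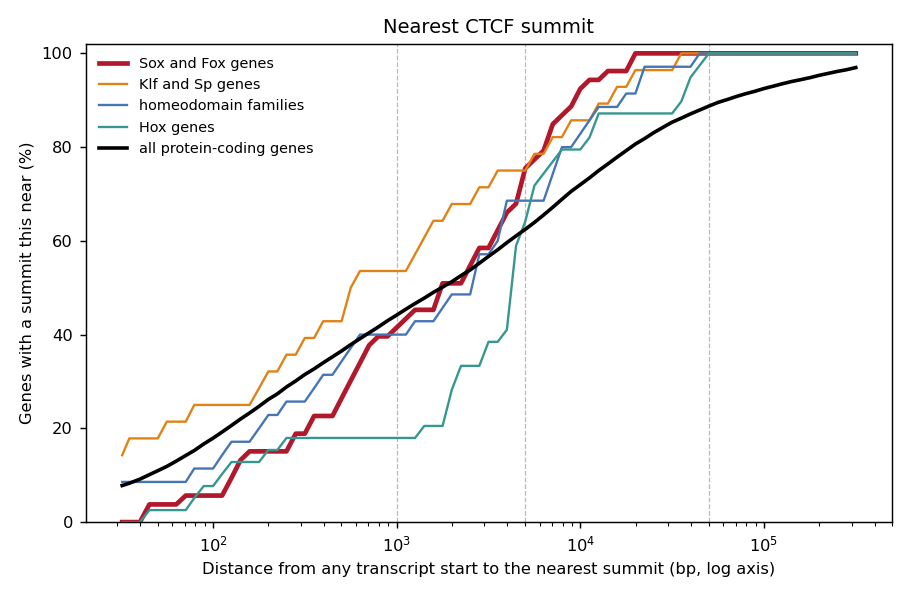
Share of genes (y axis, %) with a CTCF summit no farther from any transcript start than the distance on the x axis (bp, log axis), for 53 Sox and Fox genes, 28 Klf and Sp genes, 35 homeodomain genes, 39 Hox genes and all 20807 protein-coding genes. Dashed lines mark 1, 5 and 50 kb. The Sox and Fox curve lies below that of all genes at short distances, meets it near the median of 1653 bp, and reaches 100% within 20 kb.

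Genes differ in how many transcript starts are annotated. Of the Sox and Fox genes, 31 had a single annotated start, and the median was 1, against 3 starts for all genes. With a single start, 12 of 31 Sox and Fox genes (38.7%) had a summit within 1 kb, against 21.8% of 4406 single-start genes overall. With several starts the count was 10 of 22 (45.5%), against 50.2% of 16401 genes. The base composition of the starts differed as well. The windows of 500 bp on each side of the outermost start had a median GC content of 64.44% in Sox and Fox genes, against 55.04% in all genes, and a median observed over expected CpG ratio of 0.77 against 0.568. Among genes at 60% GC or more, 17 of 35 Sox and Fox genes had a summit within 1 kb, against 64.9% of all such genes. Among the rest, it was 5 of 18, against 35.5%.

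The families differed in their counts. A summit lay within 1 kb in 9 of 14 Sox genes (64.3%) and in 13 of 39 Fox genes (33.3%), and the median distance to the nearest summit was 492 bp for Sox and 2503 bp for Fox genes. By role, the counts within 1 kb were 8 of 17 genes known from the nervous system and 3 of 11 known from vessels and mesenchyme. They were 6 of 11 for widely expressed genes and 5 of 14 for all remaining genes, grouped as other organs and the germ line. Within 5 kb the counts by role were 15 of 17, 6 of 11, 9 of 11 and 9 of 14. Over all genes the shares were 44.2% within 1 kb and 62.4% within 5 kb. The counts by family and role are small and were not tested against each other.

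**Figure D2:**
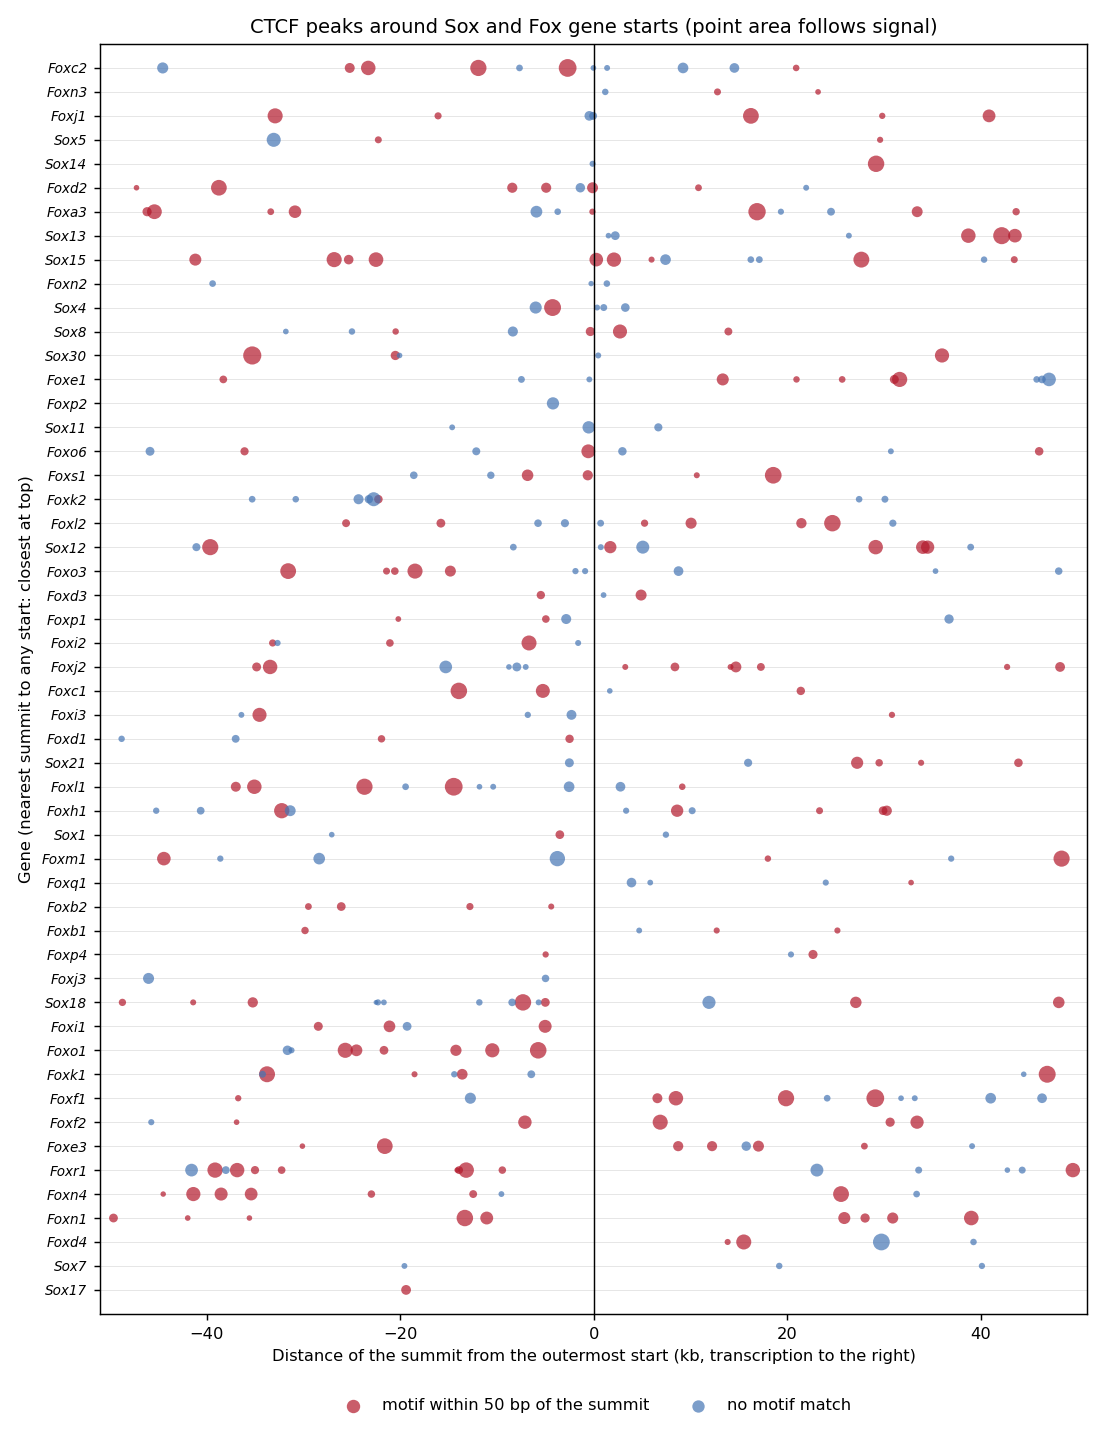
CTCF summits within 50 kb of the outermost start of the Sox and Fox genes reported here (a row each, ordered by distance to the nearest summit of any start). The x axis gives distance in kb with transcription to the right, point area grows with signal, and colour marks motif-bearing peaks. The rows run from Foxc2, with a summit 42 bp away, to Sox17, with a single summit 19392 bp away.

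Within 1 kb of the starts there were 23 peaks, 17 upstream and 6 downstream of the nearest start of the gene. Over all protein-coding genes 57.7% of 12999 such gene and peak pairs were upstream. Of the 22 genes, Sox13, Sox5, Foxp2, Foxn3 and Foxk2 had their peak at a start other than the outermost one.

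Among genes of the nervous system, Foxo6, a forkhead factor of neurons linked to memory, had the strongest start peak. Its signal was 317 in the optimal list, with 161 in replicate 1 and 158 in replicate 2, and its summit lay 567 bp upstream. Sox11, which with Sox4 promotes neuronal differentiation, had a signal of 248, with 129 and 117 in replicates 1 and 2, from a summit 527 bp upstream. The Sox11 peak matched the motif at a p of 1e-04 but not at 1e-05, and none of the 3 peaks within 50 kb of Sox11 held the motif at 1e-05.

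Foxp2, whose human counterpart is known for its part in speech, had a peak of 228, with 135 and 92.1 in the replicates, 507 bp downstream of 1 of its 16 starts. A second Foxp2 peak of 241, without a motif match, lay 4218 bp upstream of a start. Foxj1, the master factor of motile cilia, had a pair of peaks upstream of its single start, with signals of 137 at 460 bp and 81.1 at 71 bp, and neither held the motif at 1e-05. The peak at 71 bp measured 62.5 in replicate 1 and 25.2 in replicate 2.

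Sox8, a SoxE gene of glia and gonads, had 120 at its start, with 74.0 and 44.3 in the replicates, and a stronger motif-bearing peak of 330 in its own exon, 2234 bp downstream. Sox5, a SoxD gene that controls the timing of neuron birth in the cortex, had 57.1, with 27.1 and 33.4 in the replicates. Sox4 had only 29.1 at its start, with 15.9 and 12.9, yet 489 at a motif-bearing peak 4259 bp upstream, with 255 and 234. Sox14, a SoxB2 gene of inhibitory neurons, had 32.5, with 15.8 and 17.0. In these genes the strong peaks were high in both replicates, and the weak ones were low in both.

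Among widely expressed genes, Sox13, a SoxD gene, had the strongest start peak of all 53, at 350, with 194 and 157 in the replicates, 156 bp upstream of 1 of its 5 starts. Sox13 also had 500 at a motif-bearing peak 3294 bp downstream of a start and 307 at another 4659 bp downstream. Foxn3, a repressor linked to the cell cycle checkpoint, had 94.8, and Foxk2, a forkhead factor of metabolism, 53.3. Foxo3, an effector of insulin and stress signalling, had 34.0. The list of replicate 1 held no summit within 100 bp of the Foxo3 peak, and replicate 2 gave it 27.5. Sox12, the third SoxC gene, had 30.4 near its start and 241 at a motif-bearing peak in its own exon, 1689 bp downstream. Foxn2 had the weakest start peak, at 18.0, with 12.2 and 8.01.

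Among genes of vessels and mesenchyme, Foxd2 had 186 at its start, with 104 and 82.2 in the replicates, and Foxs1, a forkhead gene of pericytes, had 156, with 96.5 and 58.9. Foxc2, which is needed for lymphatic valves, had 23.4 at a summit 42 bp upstream, with 7.25 in replicate 1 and 16.0 in replicate 2. A far stronger peak, 545 with 277 and 268 in the replicates, lay 2702 bp upstream of Foxc2.

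Among genes of other organs and the germ line, Sox15 had 306 at 256 bp downstream of its start, with 156 and 153 in the replicates, and 343 at the start of the neighbouring gene Mpdu1, 2082 bp downstream. Foxl2, which maintains the ovary, had 50.4, with 32.7 and 18.4. Foxa3, a forkhead gene of the liver and gut, had 36.5, with 24.04 and 13.02, and Sox30, a gene of spermatids, 30.8, with 19.7 and 12.5. Foxe1, a gene of the thyroid, had 27.98, with 21.6 in replicate 1 and 6.25 in replicate 2.

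**Figure D3:**
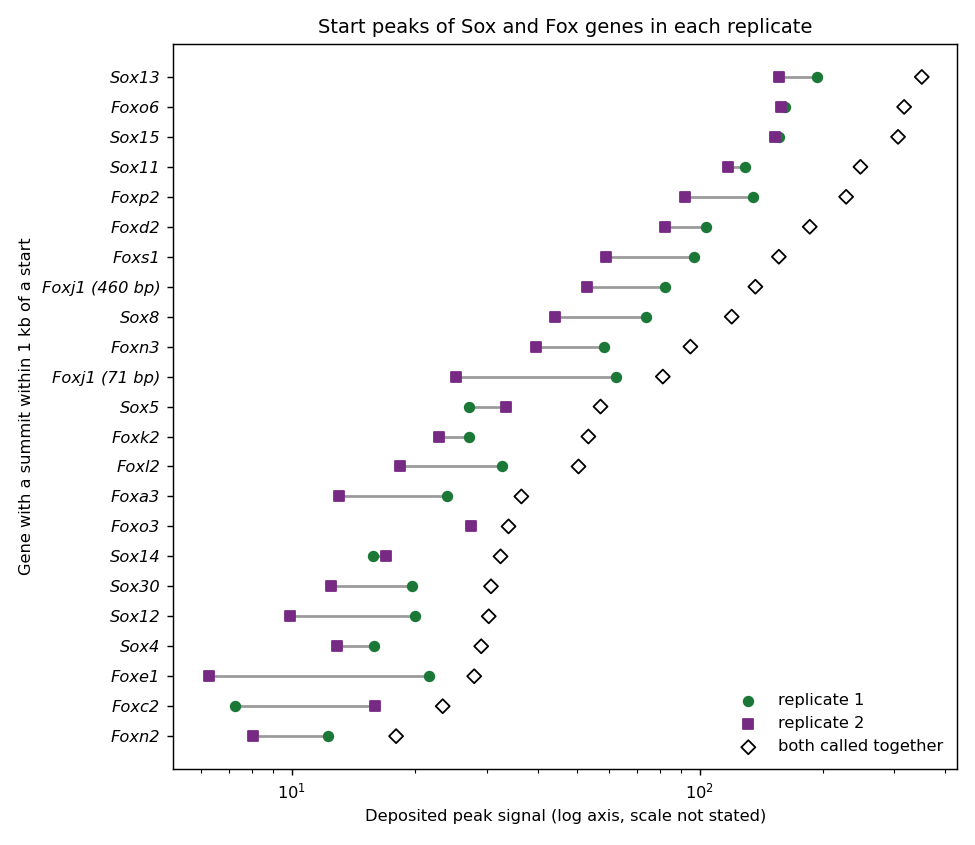
Signal (log axis, deposited values on an unstated scale) of the 23 peaks within 1 kb of a Sox or Fox start, in replicate 1 and replicate 2 called alone and in both called together. Replicate values lie close for strong peaks such as Foxo6, and far apart for Foxe1, Foxc2 and the Foxj1 peak at 71 bp. Foxo3 has no replicate 1 point.

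The log2 ratio of replicate 1 to replicate 2 had a median of 0.55 over the 22 start peaks found in both, against 0.30 over all optimal peaks, whose SD was 0.46. It ranged from -1.14 at Foxc2 to 1.79 at Foxe1, and 19 of 22 were within 1 log2 unit of the overall median, the exceptions being Foxe1, Foxc2 and the Foxj1 peak at 71 bp. Per gene, the strongest start peak had a median signal of 55.2 in Sox and Fox genes, against 85.1 in all genes with such a peak. Its median percentile within the list was 39.21, against 53.02. That order did not hold in the conservative list, where the medians were 59.99 for Sox and Fox genes and 52.43 for all genes. Nor did it hold in the peaks of replicate 2 alone, where they were 52.81 and 52.50. Among genes with 1 annotated start it was also reversed, with median percentiles of 50.36 and 47.46 and median signals of 93.6 and 70.2. Among genes with several starts the median percentiles were 39.21 and 53.63. In the conservative list Foxc2, Foxe1, Foxn2, Foxo3 and Sox12 had no peak within 1 kb, and the other 17 genes did. That count of 17 of the 53 genes stood against 42.6% of all genes in the same list.

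In 17 genes the nearest summit was 1 to 5 kb from a start. The strongest peak in that range belonged to Foxm1, a driver of mitotic genes, at 396 with 207 and 190 in replicates 1 and 2. It sat at the start of the neighbouring gene Rhno1, 3763 bp upstream of a Foxm1 start. Foxd3, a gene of the neural crest, had 187 at a motif-bearing peak 4887 bp downstream, and its nearest summit was 1010 bp away, just outside the 1 kb limit. The Foxo3 summit, at 895 bp, was the farthest inside it.

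Foxp1, a forkhead gene of striatal and motor neurons, had 22 starts and 20 summits within 50 kb, but none within 1 kb. Its strongest peak, 175, was 1187 bp downstream of a start. Foxl1, a gene of mesenchyme under the gut lining, had 174 at 2550 bp upstream. The strongest peak within 5 kb was 145 for Foxi3, 135 for Foxq1, 111 for Sox21, 104 for Foxj2, 103 for Sox1, 93.7 for Foxd1 and 68.5 for Foxj3. The weaker ones were 36.9 for Foxp4, 34.8 for Foxh1, 31.3 for Foxb2, 30.9 for Foxi2, 27.8 for Foxb1 and 21.998 for Foxc1. These genes thus had a listed peak close by, with signals on both sides of the list median of 76.5.

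In 14 genes no summit lay within 5 kb. The 5 farthest were Sox17 at 19392 bp, Sox7 at 19159 bp, Foxd4 at 13829 bp, Foxn1 at 11061 bp and Foxn4 at 9544 bp. Sox17 and Sox7 are SoxF genes of the endothelium. The third SoxF gene, Sox18, had its nearest summit at 5007 bp, just outside the 5 kb limit. Thus 0 of 3 SoxF genes had one within 5 kb, against 62.4% of all genes. Within 1 kb, 3 of 3 SoxC and 2 of 2 SoxD genes had one, against 44.2% of all genes. Both SoxD peaks lay at a start other than the outermost one. These subgroups are very small and were not tested against each other. None of the 3 SoxC start peaks held the motif at 1e-05. Foxn1 is the gene of thymic epithelium that is mutated in nude mice, and Foxn4 acts in the retina. Others were Foxr1, Foxe3, Foxf1, Foxf2, Foxk1, Foxo1 and Foxi1, between 5026 and 9450 bp.

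The unthresholded list called on both replicates together held further peaks near many starts without an optimal one. Of the 31 genes with no optimal summit within 1 kb, 23 had one in that list, with signals from 7.09 to 19.7 and a median of 10.5, against 50.7% of the 11618 genes overall that had no optimal summit there. The 8 genes with none were Foxc1, Foxd4, Foxi1, Foxl1, Foxn1, Foxq1, Foxr1 and Sox21. Among the 23 genes the highest signal was 19.7 at Foxk1, above the 18.0 of the optimal start peak of Foxn2. The Foxk1 peak was the 1 that entered when the strongest peaks of replicate 1 alone were used.

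In the 50 kb around the starts, Sox and Fox genes had a median of 7 summits, with a range of 1 to 20, against 6 and 0 to 51 for all genes. Foxp1 had the most, followed by Foxr1 with 15 and Foxn3, Foxj2 and Sox18 with 14 each. The windows are pooled over all starts, so genes with many scattered starts are searched over more sequence. Foxp1 had 22 starts and Foxn3 14, against 3 each at Foxr1 and Foxj2 and 1 at Sox18. The fewest were 1 at Sox17, 2 at Sox14 and 3 each at Sox11, Sox1, Sox7, Foxn2 and Foxd3. Windows of neighbouring members overlap, so the 400 gene and peak pairs came from 370 different peaks, 21 of them shared. Of the 370, 198 (53.5%) held the motif, against 58.9% of all optimal peaks and 1.13% of windows placed 1 kb away. By place, 135 were in introns, 115 between genes, 91 within 1 kb of some transcript start and 29 in exons. Of the 91, 68 were at starts of other genes.

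The nearest motif-bearing peaks on the left and right of each gene body were then compared by direction. They were convergent in 24 of 53 Sox and Fox genes (45.3%), against 27.8% of all protein-coding genes. They pointed the same way in 21 (39.6%), against 46.9%, and apart in 8 (15.1%), against 24.9%. Convergent pairs were found at 14 of 28 Klf and Sp genes, 12 of 35 homeodomain genes and 9 of 39 Hox genes, so the Sox and Fox share lay between those of other families. The 24 genes rest on 23 different pairs, since Foxc2 and Foxl1 share 1. The Sox and Fox count stayed between 23 and 30 of 53 under the other peak lists and motif thresholds, and the share of all genes between 26.94% and 29.98%.

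**Figure D4:**
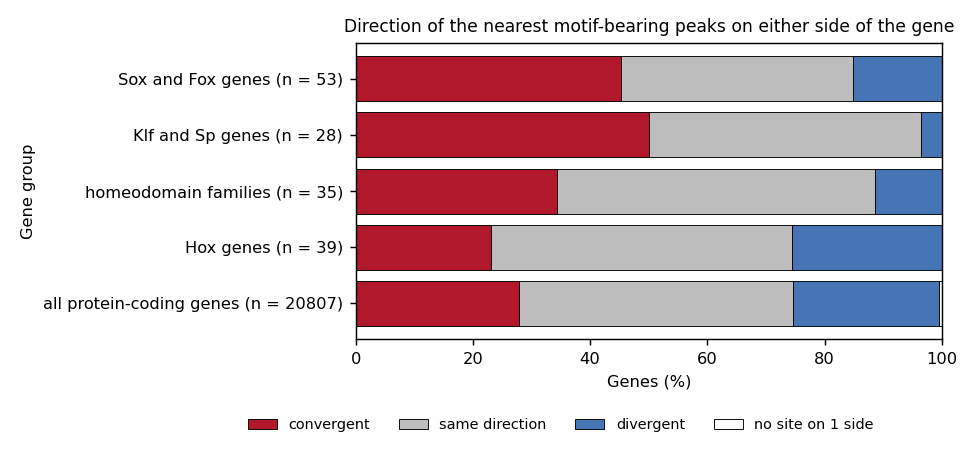
Share of genes (x axis, %) by the direction of the nearest motif-bearing peaks on the 2 sides of the gene body, for Sox and Fox genes, 3 other families and all protein-coding genes. Convergent pairs make up 45.3% for Sox and Fox genes, 14 of 28 Klf and Sp genes and 27.8% for all genes.

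The distance between these flanking sites had a median of 65.3 kb for Sox and Fox genes, against 98.8 kb for all genes, and the genes themselves were shorter, with medians of 4.84 kb and 17.6 kb. By distance between the sites, 11 of 20 Sox and Fox genes under 50 kb were convergent, 8 of 23 from 50 to 200 kb and 5 of 10 above, against 24.4%, 28.7% and 29.8% of all genes. A single coding gene lay wholly between the sites in 38 of 53 cases (71.7%), against 43.2% of all genes. Coding genes that reach only partly in were not counted. Of those 38 cases 16 were convergent (42.1%), against 29.4% over all genes of that kind. The convergent pairs ran from 11.3 kb apart at Foxs1 to 1195 kb apart at Sox5. They spanned 1002 kb at Foxp1 and 951 kb at Foxp2, which are themselves long genes. Sites within the gene body were not used, so the 2 sites of a pair need not be neighbours. Between them lay 22 other peaks at Sox5, 19 at Foxp1 and 14 at Foxp2.

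The sites of 1 pair were often unequal. Foxa3 lay between a left site of 518 and a right site of 36.5, Sox13 between 500 and 28.1, and Foxb2 between 353 and 31.3. The right site of Sox13 was missing from the list of replicate 2. Other pairs were nearly equal: Sox15 lay between 359 and 343, Foxi2 between 378 and 363, Foxi1 between 296 and 274, and Foxd1 between 93.7 and 93.6. Foxi1, a gene of the inner ear and kidney, thus had strong sites on both sides. The site of 274 was also its nearest summit, 5026 bp from the start and just outside the 5 kb limit.

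Fox genes occur in small groups, and 3 groups were mapped. On chromosome 8, Foxf1, Foxc2 and Foxl1 lie in 1 direction, with starts 31785 bp and 11769 bp apart. Between Foxf1 and Foxc2 there were 6 peaks, 4 of them motif-bearing. The pair nearer to Foxf1, with signals of 147 and 350, pointed left, and the pair nearer to Foxc2, with 448 and 545, pointed right, so the motifs point away from each other between the genes. Between Foxc2 and Foxl1 there were 2 peaks, of 28.5 and 174, and neither held the motif at 1e-05. Foxc2 and Foxl1 therefore lay within the same pair of flanking sites, and Foxf1 did not.

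On chromosome 13, Foxq1, Foxf2 and Foxc1 have starts 69682 bp and 180817 bp apart. Between Foxq1 and Foxf2 there were 5 peaks, of which 2 held motifs, both pointing left, at 22.7 and 295. Between Foxf2 and Foxc1 there were 7, of which 6 held motifs. Going from Foxf2, the first 3, at 383, 120 and 287, pointed left, and the next 3, at 28.5, 466 and 325, pointed right. A change from left-pointing to right-pointing sites along the chromosome was thus seen between Foxf and Foxc genes in both groups. It was also seen between Foxd2 and Foxe3, described below, so it was not particular to Foxf and Foxc genes. All 3 mapped groups were read after their values were seen, and no test was made.

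The motif sequences on the 2 sides of that change are shown for the Foxf and Foxc groups, in the same form as above. At each locus they are the strongest right-pointing site and, outside untranslated regions, the strongest left-pointing site.
Foxf1 side, left-pointing: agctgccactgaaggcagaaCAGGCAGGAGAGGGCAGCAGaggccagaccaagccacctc
Foxc2 side, right-pointing: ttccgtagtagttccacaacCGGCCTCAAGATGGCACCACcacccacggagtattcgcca
Foxf2 side, left-pointing: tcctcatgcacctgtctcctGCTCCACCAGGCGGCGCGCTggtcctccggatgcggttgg
Foxc1 side, right-pointing: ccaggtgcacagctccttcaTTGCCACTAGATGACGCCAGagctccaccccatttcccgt
They lie at chr8:121090953-121090972 (minus strand) and chr8:121113508-121113527 (plus), in introns of Gm20388, and at chr13:31632672-31632691 (minus) and chr13:31792679-31792698 (plus), between genes.

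On chromosome 4, Foxd2 and Foxe3 both run left, with starts 17140 bp apart. There were 4 peaks between them, 3 with motifs. The site at the Foxd2 start, 186, and one at 153 pointed left, and one at 155 on the Foxe3 side pointed right. The change from left-pointing to right-pointing sites was thus seen here as well. Beyond Foxe3 stood a left-pointing site of 418, the strongest of this group, so that Foxe3 lay between convergent sites. Foxd2 lay between sites that point the same way.

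**Figure D5:**
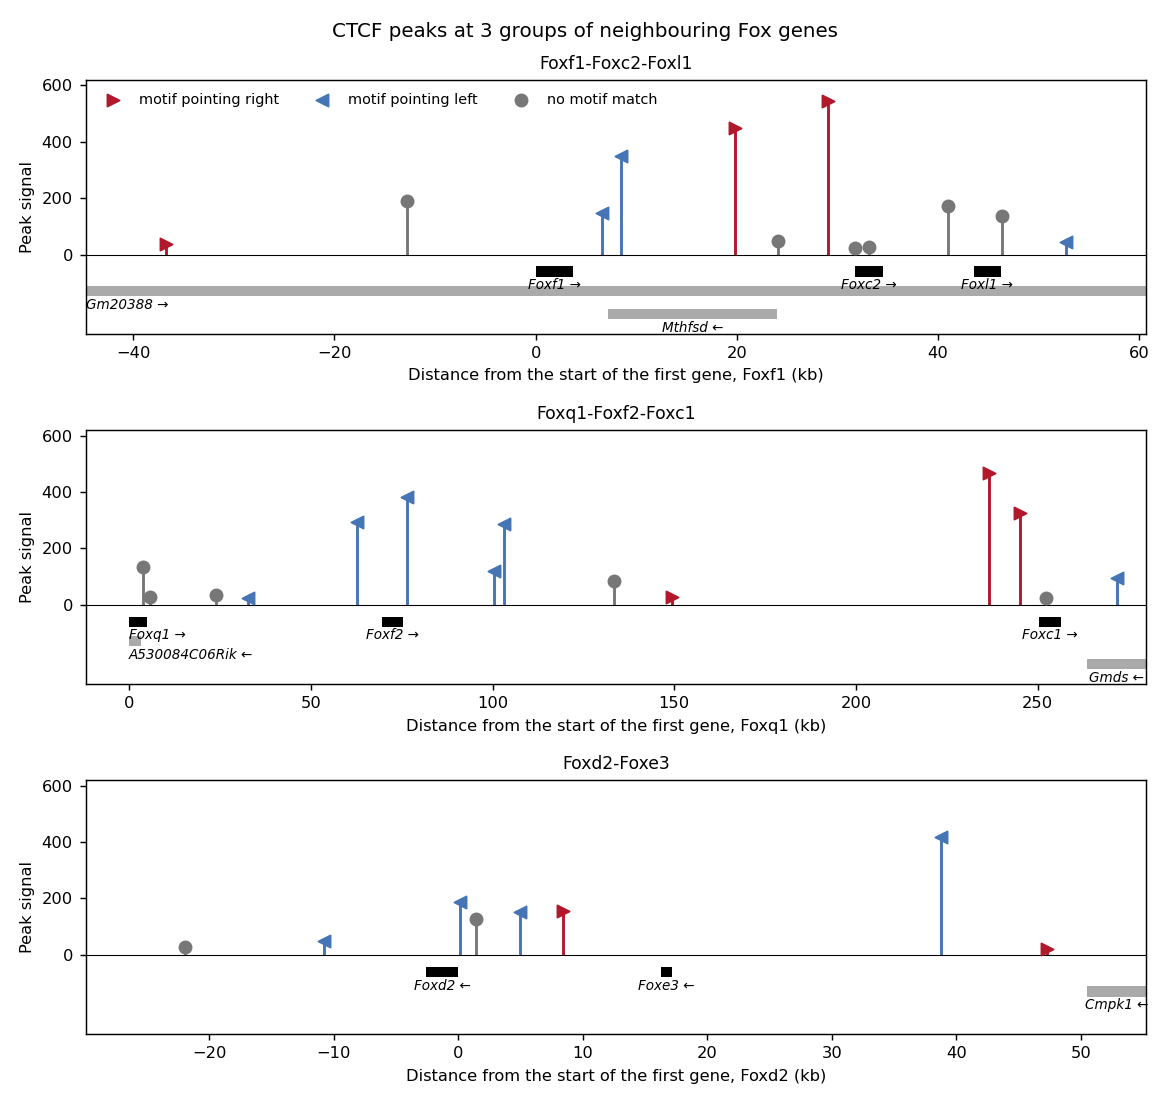
Peak signal (y axis) against distance in kb from the start of the first named gene (x axis) at 3 groups of Fox genes. Arrowheads give the direction of the motif, grey points are peaks without a match at 1e-05, and black bars are the Fox genes. In the Foxf1 and Foxf2 maps left-pointing sites follow the Foxf gene and right-pointing sites precede the Foxc gene. The Foxd2 map also changes from left-pointing to right-pointing sites, between Foxd2 and Foxe3.

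Genes that work with Sox and Fox proteins, or control them, were read in the same way. A summit lay within 1 kb of a start in 26 of 32 of them, against the 44.2% of all genes given above. These genes had a median of 6.5 starts, against 3 for all genes, and a median GC content of 65.13% around the outermost start, against 55.04%. The share was 50.2% of all genes with several starts and 64.9% of all genes at 60% GC or more, and the part of starts and GC in the count of 26 was not tested. By group it was 14 of 15 genes of FOXO and FOXH1 signalling, 5 of 7 corepressors of Fox proteins, 4 of 6 partners of Sox proteins and 3 of 4 other HMG-box factors of the Wnt pathway. The kinase Akt1, which phosphorylates FOXO proteins, had 4 peaks within 1 kb, the strongest at 403. Sgk1, a kinase with the same targets, had 4, up to 327. Smad4, the shared subunit of SMAD complexes, had 1 at 367. Among Wnt factors Tcf7l1 had 475 at its start, and Tcf7 had none within 5 kb. The corepressor gene Tle4 had none within 50 kb.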

How the data were processed

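CTCF ChIP-seq peak lists of postnatal day 0 B6NCrl midbrain were used: 1 group, 2 replicates. The authors deposited 5 narrowPeak lists on mm10 with a peak signal of unstated scale: 1 per replicate, 1 from both together (300000 peaks each), and optimal (68603) and conservative (65493) lists thresholded by IDR, per the labels and deposited notes. Aligner, peak caller, IDR threshold and read depth: not given in the sources used here. The 13 optimal peaks on scaffolds were left out.

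Summits were measured to every transcript start of GENCODE vM21, on either strand. Replicate summits matched within 100 bp. The CTCF motif was a 20 bp weight matrix. One was built on the top 2000 peaks of odd chromosomes plus X to score even chromosomes, and another the other way round. Matches reached a per-position p of 1e-05 on either strand, centred within 50 bp of the summit. Sequence came from GRCm38.p6, the same build as mm10. Distance counts and motif scoring were tested on simulated data. Python 3.11.15, numpy 2.4.6, pandas 2.3.3 and pysam 0.24.0 were used.

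With 1 group there was no contrast to test, so counts and medians of the 53 genes stand beside those of all 20807 genes. The genes named are those with a summit within 1 kb, those at 1 to 5 kb, the 5 farthest, the 5 with most and with fewest summits within 50 kb, and members with another within 100 kb. Genes outside this rule, among them the partners named, were chosen after their values were seen. The members and all lists were chosen with earlier results of these data known. Alternatives tried were a second list (conservative), the stronger 50% of peaks, each replicate alone, outermost starts, other distances, peak overlap and other motif thresholds. Results of some genes are not reported here, though counts over the lists include them.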

Additional observations from a re-analysis of the deposited data

How the results depend on the processing

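No paired analysis was possible because there is 1 group. The count within 1 kb was 10 of 53 with the stronger 50% of peaks (all genes 23.6%) and 14 within 500 bp (all genes 36.5%), and was 20 without either replicate. The count within 5 kb was 24 with the stronger 50% (all genes 42.5%), and ranged from 36 to 41 without each replicate. The count within 50 kb was 50 with the stronger 50% (all genes 82.9%) and 53 under the other alternatives run. The median nearest distance was 2503 bp with the conservative list (all genes 2007), 5264 bp with the stronger 50% (all genes 7781), 2851 bp from outermost starts (all genes 3620), and 1622 to 2522 bp without each replicate, the higher value without replicate 1 (all genes 1656). The median number of summits within 50 kb was 6 with the conservative list (all genes 5), 4 with the stronger 50% (all genes 3) and 6 from outermost starts (all genes 5). The median percentile of the strongest start peak was 59.99 with the conservative list (all genes 52.43) and 74.56 with the stronger 50% (all genes 73.28). From outermost starts it was 22.63 (all genes 48.38). It was 52.81 without replicate 1 (all genes 52.5) and 49.17 without replicate 2 (all genes 52.54). Its place below that of all genes thus did not hold in each list. Genes with a motif-bearing peak within 1 kb were 15 at a motif p of 1e-04 (all genes 29.4%) and 3 at 1e-06 (all genes 8.16%). The cause was not tested. The convergent count was 23 to 30 under the alternatives run; the choice of starts does not enter it. Overlap of any part of a peak was run only for the distance counts. In all, 17 alternative values moved and 31 did not. Read depth is unknown, and no detection limit can be set for genes without a listed peak.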
